A study of Mus musculus with 13 samples.

Results

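The genes described here are 45 genes of the motile cilium axoneme, the microtubule core of the beating cilia that line the airways. They were taken as a fixed list of mouse symbols: 2 transcription factors, 5 outer arm and 7 inner arm dynein chains, 1 dynein light chain, 2 docking and 2 dynein assembly proteins, 3 ruler and nexin link proteins, 3 radial spoke proteins, 8 central pair proteins, 9 proteins of or on the doublet microtubules, and 3 other ciliary proteins. All 45 were found among the 46679 gene IDs of the deposited tables, 2 of them (Dnai1 and Dnai2) under the older symbols Dnaic1 and Dnaic2. No measured value was part of the rule that chose them, but the choice was made with earlier results of these data known.

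The 13 libraries hold total RNA, depleted of ribosomal RNA, of tissue taken from female FVB animals at 10 weeks of age. The 3 breast tumors (mice 6877, 6880 and 6881) grew for 2 weeks after 250000 cells of the mouse breast cancer line Met1 had been put into the inguinal mammary fat pad at 8 weeks of age. The 4 tumor-bearing lungs came from mice 6877, 6879, 6880 and 6881 with such a tumor, so that 3 mice gave both tissues. The 4 normal lungs came from mice 6886, 6887, 6888 and 6893 without a tumor, and 2 of these (6886 and 6888) were prepared in both preparation batches, which makes 6 libraries. All 3 tumors and the tumor-bearing lung of mouse 6877 were of preparation batch 2, and the other 3 tumor-bearing lungs of batch 1. The normal lungs of mice 6887 and 6893 were of batch 2. Tumors thus differed from most tumor-bearing lungs in batch as well as in tissue. No genotype other than the strain is given. All tumors stem from 1 injected line, and RNA was taken from 20 mg of frozen tissue, without a statement of how much airway a piece of lung held.

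A motile cilium carries a ring of 9 doublet microtubules around a central pair. Outer and inner dynein arms on the doublets slide neighbouring doublets against each other, radial spokes and the central pair tune that sliding, and the nexin-dynein regulatory complex limits it. In the lung such cilia stand on multiciliated cells of the conducting airways, which switch on these genes as a programme under Foxj1 and RFX factors. Breast epithelium has no motile cilia, although many of its cells can form a primary cilium, which lacks dynein arms and a central pair.

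Libraries held 8321037 to 13982903 estimated counts, and 45.6 to 69.6% of a library's counts were of protein-coding genes. Levels within a gene are given as CPM, counts relative to a library size scaled by trimmed mean of M values (TMM). Levels between genes are given as protein-coding TPM, the deposited TPM (reads per transcript length) rescaled to a fixed sum over protein-coding genes, since these genes took 1.77 to 6.99% of the deposited TPM. Markers of the labelled tissues were as follows. Sftpc, the surfactant protein C gene of alveolar type 2 cells, was at 0.312 to 6.94 CPM in tumors, 2634 to 7497 CPM in tumor-bearing lungs and 4353 to 9221 CPM in normal lungs. Epcam, an epithelial adhesion gene, was at 275 to 446 CPM in tumors, 22.7 to 38.7 CPM in tumor-bearing lungs and 31.6 to 37.1 CPM in normal lungs.

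Promoters of 7 of the genes are shown, because they hold or lack the letters that RFX and forkhead factors, the families of Rfx3 and Foxj1, are known to bind. Each window runs from 250 bases before to 50 bases after the annotated start, 5′ to 3′ on the gene's strand, from RefSeq on GRCm38.p6. Gene positions given below are those of GENCODE. The windows of Cfap43 and Tekt4 lie inside the longer GENCODE spans of these genes, not at their start. Capitals mark GTTGCC, a half-site of the X-box bound by RFX factors, or GTAAACA, a forkhead core, on either strand. Dynlrb2, Tekt4 and Dnah5 had 0 counts in all 3 tumors, Hydin and Spag16 are central pair genes, and Rfx3 and Cfap43 stayed expressed in tumors.
Dynlrb2: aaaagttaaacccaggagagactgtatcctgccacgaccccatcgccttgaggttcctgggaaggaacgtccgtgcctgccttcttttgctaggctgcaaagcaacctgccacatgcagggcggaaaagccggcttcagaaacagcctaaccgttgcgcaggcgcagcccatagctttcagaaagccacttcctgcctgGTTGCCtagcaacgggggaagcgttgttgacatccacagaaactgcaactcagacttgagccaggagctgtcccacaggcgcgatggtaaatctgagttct
Tekt4: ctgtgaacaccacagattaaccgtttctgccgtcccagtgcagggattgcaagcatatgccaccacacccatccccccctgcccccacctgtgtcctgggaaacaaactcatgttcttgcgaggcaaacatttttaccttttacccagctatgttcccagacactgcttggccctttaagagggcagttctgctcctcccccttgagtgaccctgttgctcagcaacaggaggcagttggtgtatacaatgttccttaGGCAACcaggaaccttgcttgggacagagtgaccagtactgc
Dnah5: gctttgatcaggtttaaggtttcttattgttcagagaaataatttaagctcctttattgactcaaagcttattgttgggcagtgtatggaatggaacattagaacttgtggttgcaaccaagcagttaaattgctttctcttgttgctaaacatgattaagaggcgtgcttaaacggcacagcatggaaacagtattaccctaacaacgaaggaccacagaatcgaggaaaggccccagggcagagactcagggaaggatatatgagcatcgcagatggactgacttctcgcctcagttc
Hydin: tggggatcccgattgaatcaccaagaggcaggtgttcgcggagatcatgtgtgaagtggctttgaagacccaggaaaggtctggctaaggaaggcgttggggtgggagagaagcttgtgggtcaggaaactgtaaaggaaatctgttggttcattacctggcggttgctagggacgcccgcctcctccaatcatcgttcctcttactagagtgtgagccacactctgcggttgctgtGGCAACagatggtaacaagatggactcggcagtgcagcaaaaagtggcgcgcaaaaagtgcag
Spag16: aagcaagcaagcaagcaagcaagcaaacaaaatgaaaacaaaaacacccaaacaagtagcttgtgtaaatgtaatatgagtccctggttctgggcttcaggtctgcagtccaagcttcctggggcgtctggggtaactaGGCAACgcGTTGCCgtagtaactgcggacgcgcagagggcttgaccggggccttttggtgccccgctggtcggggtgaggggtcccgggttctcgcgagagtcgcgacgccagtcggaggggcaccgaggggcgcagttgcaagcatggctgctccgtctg
Rfx3: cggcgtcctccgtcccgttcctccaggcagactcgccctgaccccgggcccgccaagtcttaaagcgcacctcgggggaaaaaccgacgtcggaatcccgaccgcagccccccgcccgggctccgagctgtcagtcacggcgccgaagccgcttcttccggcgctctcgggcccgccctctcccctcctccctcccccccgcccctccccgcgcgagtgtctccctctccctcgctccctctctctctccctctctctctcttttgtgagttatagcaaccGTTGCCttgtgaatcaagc
Cfap43: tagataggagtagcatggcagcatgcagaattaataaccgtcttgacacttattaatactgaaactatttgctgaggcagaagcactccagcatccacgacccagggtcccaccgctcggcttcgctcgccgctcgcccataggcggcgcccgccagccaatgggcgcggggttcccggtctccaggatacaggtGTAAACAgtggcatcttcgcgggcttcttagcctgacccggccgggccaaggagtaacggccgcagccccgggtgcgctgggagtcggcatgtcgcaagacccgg

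The windows lie at chr8:116504765-116505064, plus strand for Dynlrb2, at chr17:25471340-25471639, plus strand for Tekt4 and at chr15:28203516-28203815, plus strand for Dnah5. Those of the other genes lie at chr8:110266727-110267026, plus strand for Hydin, at chr1:69826720-69827019, plus strand for Spag16, at chr19:28011117-28011416, minus strand for Rfx3 and at chr19:47837312-47837611, minus strand for Cfap43. Spag16 held the half-site in both directions, starting 111 and 103 bases before the annotated start. Hydin held it 13 bases and Dynlrb2 51 bases before the start, while those of Tekt4 and Rfx3 began at bases 9 and 32 after it. Cfap43 held the forkhead core alone, 55 bases before the start, and the Dnah5 window held neither motif.

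Windows were found for 36 of the 45 genes; Foxj1, Rsph1, Rsph4a, Tppp3, Cfap53, Cfap54, Cfap65, Armc4 and Lrrc6 had none in the table. GTTGCC or its reverse GGCAAC stood in 17 of the 36 (47.2%), against 14.1% of all 27025 symbols with such windows. The longer GTTGCCA, reverse TGGCAAC, which overlaps it, stood in 7 of 36, against 5.02% of all symbols. The whole X-box, in which both half-sites face each other, was searched on both strands as a fixed pattern with a fixed spacing only. That form stood in 0 of 36, against 0.529% of all symbols. Other spacings and looser letters were not searched. The count thus does not exclude an X-box of another form in these windows, that of Dynlrb2 included. GTAAACA, reverse TGTTTAC, stood in 2 of 36, against 4.05%, and TATAAA, reverse TTTATA, in 3 of 36, against 15.7%. CCAAT, reverse ATTGG, stood in 16 of 36, against 41.1%. By counts in the tumors, GTTGCC was present in 2 of the 5 windows of genes at 0 counts, 8 of the 13 of genes with 1 to 3 counts and 7 of the 18 of genes with more. The motifs were chosen with the expression values known, and a match is a description of the letters only.

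The ciliary genes were detected in every lung. All 45 had at least 1 count in each of the 10 lung libraries, whereas 20, 17 and 15 of them had 0 counts in the tumors of mice 6877, 6880 and 6881. The summed level of the 45 genes was 99.4, 108 and 89.0 CPM in these tumors, 381 to 583 CPM in tumor-bearing lungs and 425 to 582 CPM in the normal lungs, repeat libraries included. The lung ranges overlapped, and the tumors lay below both. In bulk tissue, fewer ciliated cells and less RNA per cell cannot be told apart.

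**Figure D1:**
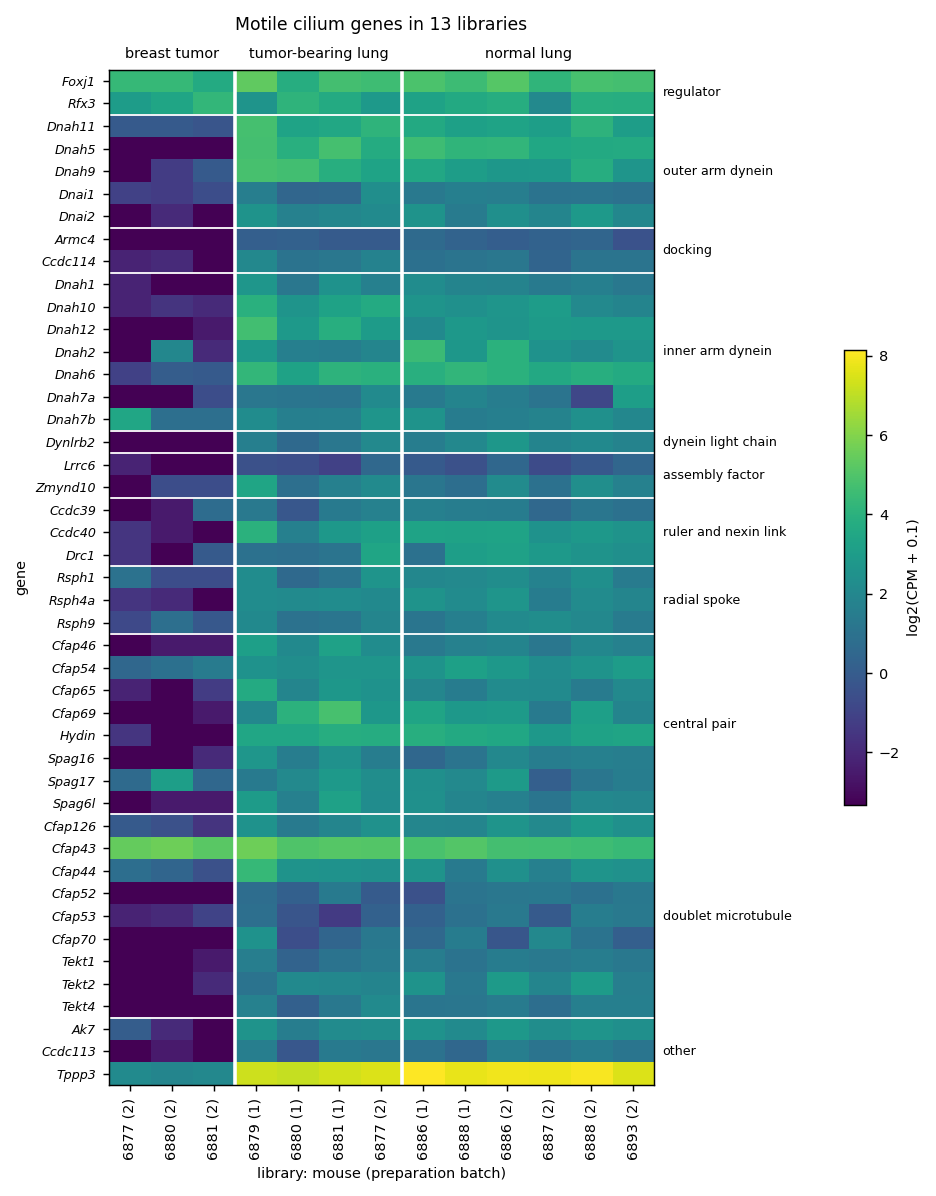
Level of each of the 45 genes as log2(CPM + 0.1) (color) in the 13 libraries, with genes in rows grouped by role and libraries in columns by group, mouse and preparation batch (in parentheses). The tumor columns are dark for most rows, and Foxj1, Rfx3 and Cfap43 keep lung-like colors there.

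Tppp3, a relative of the tubulin polymerization promoting protein, was the highest of the 45 in both lung groups. Its level was 433 ± 25.3 protein-coding TPM in tumor-bearing lungs and 527 ± 105 protein-coding TPM in normal lungs (SD, n = 4 each). It made up 51.4 to 72.5% of the summed protein-coding TPM of the 45 genes in the lung libraries and 10.1 to 13.2% in tumors. The next in normal lung were Dynlrb2, a roadblock-type dynein light chain, at 24.9 ± 4.40 protein-coding TPM, Drc1, of the nexin-dynein regulatory complex, at 22.3 ± 12.04, Foxj1 at 16.8 ± 4.003 and Cfap43, a tether of inner arm dynein heads, at 16.1 ± 4.09. Dynlrb2 lay at 21.25 protein-coding TPM or more in every main normal library, above the highest values of Foxj1 (20.8) and Cfap43 (21.20). The ranges of Drc1, Foxj1 and Cfap43 overlapped each other, and that of Drc1 also overlapped Dynlrb2. At the low end of normal lung stood Armc4, of the outer arm docking complex, at 0.627 ± 0.220 and Dnah1, an inner arm heavy chain, at 0.475 ± 0.184 protein-coding TPM. In tumors the order was another: Cfap43 led at 19.3 ± 5.03 protein-coding TPM, followed by Foxj1 at 9.19 ± 2.66, Rfx3 at 8.14 ± 4.30 and Tppp3 at 6.78 ± 0.495 (SD, n = 3). The level of Cfap43 stood above that of the other genes by more than its SD, while Foxj1, Rfx3 and Tppp3 lay within their spread of each other. Of the 45, only these 4 averaged more than 5 protein-coding TPM in tumors, against 19 in tumor-bearing lungs and 14 in normal lungs.

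Breast tumors were nearly without most axonemal messages, but kept both transcription factors. Against tumor-bearing lung, 37 of the 45 genes were lower and 0 higher at an adjusted p under 0.05 by edgeR's quasi-likelihood test with Benjamini-Hochberg adjustment, where 23.7% of the 18297 genes tested were lower and 22.6% higher. Against normal lung, 38 were lower and 1, Cfap43, higher, where 24.7% of the genes tested were lower and 24.5% higher. At an unadjusted p under 0.05, 38 and 39 of the 45 were lower than in tumor-bearing and normal lung, against 27.5% and 27.7% of all genes tested, while 0 and 1 were higher, against 25.8% and 27.3%. DESeq2 and voom also called 0 higher than in tumor-bearing lung, where they called 4400 of 33595 and 4132 of 18297 genes higher. Every tumor lay below every lung for 36 genes against tumor-bearing lung and for 39 against normal lung, where 27.4% and 26.4% of all genes tested did so; 0 and 1 lay above, against 26.6% and 27.2%. With the mouse as a block in edgeR, the calls lost against tumor-bearing lung included Dnah7a (−3.45, adjusted p = 0.0815, all libraries). They also included Rsph9 (−1.45, adjusted p = 0.132, the 6 libraries of mice with both tissues). The fit over these 6 libraries tested 42 of the 45 genes, so that the rest could not be called there. Both comparisons use the same 3 tumors. The median log2 fold change of the 45 was −4.79 against tumor-bearing lung and −4.70 against normal lung, where all genes tested had medians of −0.10 and −0.04. With genes at 0 counts in all tumors set to their bound, the medians were −4.50 and −4.61. Many of these genes passed the filter on low counts through the lungs alone and so had to be lower, so that the counts describe the tissues and carry no test of the list.

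**Figure D2:**
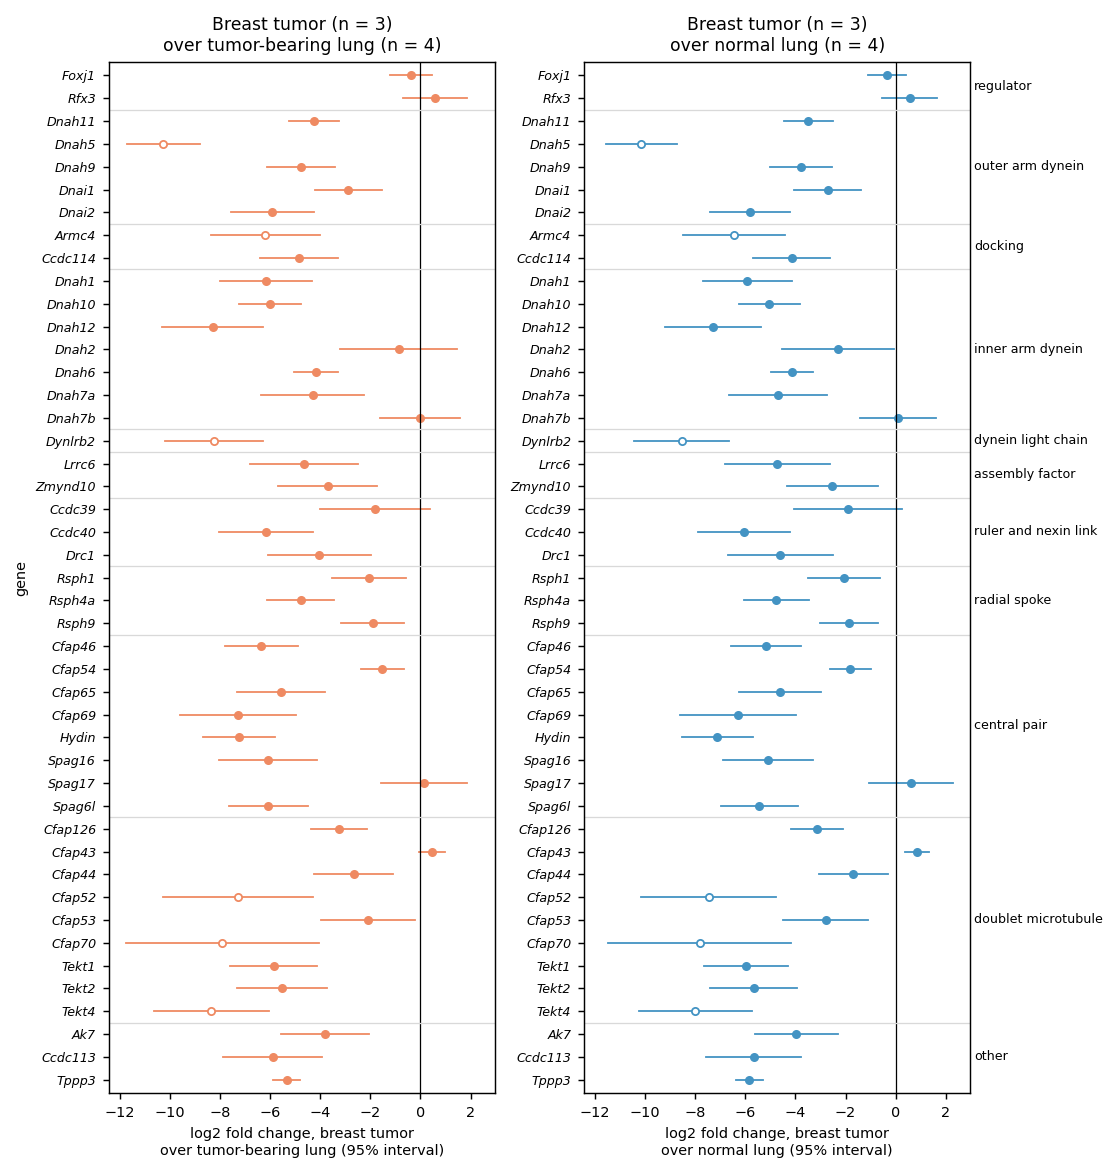
Fitted log2 fold change with its 95% interval for each gene, for breast tumor over tumor-bearing lung (left) and over normal lung (right), with 3 tumors and 4 lungs per side. Open points are genes with 0 counts in all tumors, whose fitted value depends on the prior count; the points of Foxj1, Rfx3, Dnah7b, Spag17 and Cfap43 lie near 0.

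Foxj1, the forkhead factor that switches on the motile cilium programme, was at 20.7, 20.4 and 12.7 CPM in the tumors of mice 6877, 6880 and 6881. It was at 24.1, 39.9, 14.2 and 26.3 CPM in the tumor-bearing lungs of mice 6877, 6879, 6880 and 6881, and at 29.6, 17.9, 23.4 and 26.3 CPM in the normal lungs of mice 6886, 6887, 6888 and 6893. In CPM the tumors overlapped both lung groups, and their mean was 68.7% of that of tumor-bearing lung and 74.0% of that of normal lung. The log2 fold change was −0.39 ± 0.39 (SE) against tumor-bearing lung (adjusted p = 0.436) and −0.34 ± 0.35 against normal lung (adjusted p = 0.455), by edgeR, with 95% intervals from −1.23 to 0.46 and from −1.10 to 0.43. In protein-coding TPM the tumors had 8.68, 12.07 and 6.81, against 12.23 to 34.3 in tumor-bearing lungs and 11.2 to 20.8 in normal lungs. On that scale every tumor lay below every tumor-bearing lung, and the tumors still overlapped the normal lungs. Fitted with limma on log2(protein-coding TPM + 1), Foxj1 had differences of −0.76 (adjusted p = 0.120) and −0.61 (adjusted p = 0.162).

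Rfx3, a factor that binds X-box sites of ciliary genes, was at 7.90, 10.5 and 19.1 CPM in tumors, in the same order of mice. The tumor-bearing lungs had 7.15, 6.09, 17.4 and 12.98 CPM and the normal lungs 9.59, 4.06, 12.3 and 13.9 CPM. The 3 groups overlapped, and the highest value of all was that of the tumor of mouse 6881. Its log2 fold change was 0.58 ± 0.58 (SE) against tumor-bearing lung (edgeR adjusted p = 0.440) and 0.57 ± 0.50 against normal lung (adjusted p = 0.372). With the mouse as a block the first of these turned to −0.17 over all libraries and −0.06 over the 6 libraries of the mice with both tissues.

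Other markers of ciliated cells were low in tumors. Sntn, which encodes sentan of the ciliary tip, was at 0 in all 3 tumors, at 1.16 to 2.83 CPM in tumor-bearing lungs and at 0.614 to 2.20 CPM in normal lungs. Tmem212 was at 0 to 0.156 CPM in tumors, 2.64 to 6.46 CPM in tumor-bearing lungs and 2.58 to 5.34 CPM in normal lungs. Ccdc153 was at 0 to 0.468 CPM in tumors, 2.19 to 8.50 CPM in tumor-bearing lungs and 4.35 to 7.48 CPM in normal lungs. All 3 were lower in every tumor than in every lung, with tumor means of 0, 2.00 and 4.20% of normal lung.

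Outer arm genes were low in all tumors. Dnah5, the gamma-type heavy chain, had 0 counts in each tumor, against 13.04, 26.6, 14.7 and 27.3 CPM in the tumor-bearing lungs of mice 6877, 6879, 6880 and 6881 and 23.8, 11.4, 18.2 and 12.95 CPM in the normal lungs of mice 6886, 6887, 6888 and 6893. Against a floor of 3 counts over the 3 tumors, it was at least 227-fold lower than in tumor-bearing lung and at least 191-fold lower than in normal lung. The gene lies on GRCm38 at chr15:28203752-28472052 on the plus strand. Dnah9 and Dnah11, the beta-type heavy chains, averaged 0.390 ± 0.434 and 0.799 ± 0.0851 CPM in tumors (SD, n = 3), against 8.21 ± 2.38 and 9.498 ± 1.99 CPM in normal lungs (n = 4). Their log2 fold changes against normal lung were −3.78 ± 0.57 and −3.48 ± 0.44 (SE). The intermediate chain genes Dnai1 and Dnai2 were at −2.71 ± 0.62 and −5.83 ± 0.73. The docking genes Armc4, at 0 counts in all tumors and at least 12.5-fold lower than in normal lung, and Ccdc114, with 3 counts over the tumors or 5.07% of the normal lung level (exact 95% counting interval 1.02 to 15.3%), were lower as well. All of these 7 genes passed the threshold in both comparisons with all libraries. The call of Dnai1 against tumor-bearing lung (−2.88) was lost without the lung of mouse 6877 (−1.61, edgeR adjusted p = 0.0997). The fit without that lung had no tumor-bearing lung of batch 2. It called 6444 of 18279 genes in this comparison, against 8471 of 18297 with all libraries. The same fit is meant below where a call against tumor-bearing lung was lost without this lung.

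Of the 7 inner arm heavy chain genes, Dnah1, Dnah6, Dnah7a, Dnah10 and Dnah12 were lower in both comparisons, with log2 fold changes against normal lung of −4.14 (Dnah6) to −7.29 (Dnah12). The other 2 were carried by single tumors. Dnah2 had 0, 50 and 2 counts in the tumors of mice 6877, 6880 and 6881, and was at 0, 3.90 and 0.156 CPM there, against 2.83 to 6.84 CPM in tumor-bearing lungs and 5.59 to 22.6 CPM in normal lungs. The tumor of mouse 6880 thus reached the range of tumor-bearing lungs, and the fit did not pass the threshold against tumor-bearing lung (log2 fold change −0.87 ± 1.07, SE, adjusted p = 0.534) or normal lung (−2.29 ± 1.02, adjusted p = 0.0827). Dnah7b had 90, 22 and 22 counts, and was at 10.8, 1.72 and 1.72 CPM in tumors, against 3.02 to 6.18 CPM in tumor-bearing lungs and 2.75 to 5.83 CPM in normal lungs. The tumor of mouse 6877 lay above every lung and the other 2 below every lung. Without that tumor, Dnah7b was lower than in normal lung by a log2 fold change of −1.33 (edgeR adjusted p = 0.0397). The sequences of Dnah7a and Dnah7b are 96.9% identical over 99.3% of the longest Dnah7b coding transcript, so that the division of reads between them is uncertain.

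The dynein light chain gene Dynlrb2 had 0 counts in all tumors, against 1.42 to 4.15 CPM in tumor-bearing lungs and 2.84 to 3.997 CPM in normal lungs, and was at least 28.5-fold and at least 38.5-fold lower. Zmynd10 and Lrrc6, factors that help to preassemble dynein arms in the cytoplasm, were also lower in both comparisons. Zmynd10 was at 0, 0.546 and 0.546 CPM in tumors and 1.69 to 3.19 CPM in normal lungs (log2 fold change −2.53 ± 0.83, SE, edgeR adjusted p = 0.0242), and the call was lost without the tumor of mouse 6877 (adjusted p = 0.0575) or the normal lung of mouse 6893 (adjusted p = 0.0894). Lrrc6 had 1 count in 3 tumors and 38 in 4 normal lungs, or 3.64% of the normal lung level with an exact 95% counting interval of 0.0899 to 21.6%.

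The ruler genes behaved unequally. Ccdc40, which with Ccdc39 sets the spacing of the axonemal repeat, had 3 counts over the tumors, or 1.13% of the normal lung level (exact 95% counting interval 0.232 to 3.32%), and passed the threshold in both comparisons. Ccdc39 had 0, 1 and 20 counts in the tumors of mice 6877, 6880 and 6881, or 0, 0.0780 and 1.56 CPM, against 0.772 to 3.19 CPM in tumor-bearing lungs and 1.35 to 3.07 CPM in normal lungs. It passed in neither (log2 fold change −1.89 ± 0.99 against normal lung, SE, edgeR adjusted p = 0.135). Exons of Ttc14 on the opposite strand cover 16.9% of its exon bases, and Ttc14 was at 24.9 CPM in tumors, 30.4 CPM in tumor-bearing lungs and 18.9 CPM in normal lungs. Strand use in the counting is not given in the sources used here, and the part of Ttc14 in the Ccdc39 counts was not tested. Drc1 was at 0.239, 0 and 0.858 CPM in tumors and 1.84 to 8.44 CPM in normal lungs, and was lower in both comparisons (−4.61 ± 0.96 against normal lung, adjusted p = 0.00184). Against tumor-bearing lung its call was lost without the lung of mouse 6877 (log2 fold change −2.58, adjusted p = 0.114).

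Radial spoke genes were the least reduced of the structural groups, with a median log2 fold change of −2.06 against normal lung. Rsph4a, a spoke head gene, was at 0.239, 0.156 and 0 CPM in tumors and 2.71 to 5.83 CPM in normal lungs (−4.76 ± 0.59, SE, edgeR adjusted p = 4.36e-05). Rsph1 was at 1.92, 0.546 and 0.546 CPM in tumors and 2.65 to 4.17 CPM in normal lungs, and Rsph9 at 0.479, 1.72 and 0.780 CPM in tumors and 2.07 to 4.83 CPM in normal lungs. Both were lower than in normal lung, with adjusted p of 0.0223 and 0.0113. The call of Rsph1 was lost without the tumor of mouse 6880 (adjusted p = 0.0724), the tumor of mouse 6881 (0.0745) or the tumor-bearing lung of mouse 6877 (0.0550), and that of Rsph9 without the normal lung of mouse 6887 (0.0663). Against tumor-bearing lung, Rsph1 (−2.05) lost its call without the lung of mouse 6877 (−1.03, adjusted p = 0.384), the tumor of mouse 6880 (0.0772) or the tumor of mouse 6881 (0.0806). Rsph9 lost it there without the lung of mouse 6877 (0.0822) or the tumor of mouse 6881 (0.0518).

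Of the 8 central pair genes, 7 were lower in both comparisons. Hydin had 2, 0 and 0 counts in the tumors of mice 6877, 6880 and 6881, against 88 to 191 counts in tumor-bearing lungs and 80 to 187 in the main libraries of normal lungs. Over the tumors this was 0.531% of the normal lung level (exact 95% counting interval 0.0642 to 1.93%). Spag6l, Spag16 and Cfap46 had 2 counts each over the tumors, Cfap69 had 1 and Cfap65 had 5. Cfap54 was the least reduced of the 7, at 1.32, 1.79 and 2.65 CPM in tumors against 4.66 to 9.15 CPM in normal lungs (−1.80 ± 0.37, SE, edgeR adjusted p = 0.00157). Against tumor-bearing lung its call (−1.52, adjusted p = 0.00762) was lost without the lung of mouse 6877 (−1.28, adjusted p = 0.0941).

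Spag17 was the exception of the central pair. It had 12, 108 and 17 counts in the tumors of mice 6877, 6880 and 6881, or 1.44, 8.43 and 1.33 CPM, against 2.49 to 7.18 CPM in tumor-bearing lungs and 1.02 to 5.14 CPM in normal lungs. The tumor of mouse 6880 lay above every main lung library, and the other 2 fell within the normal lungs. The log2 fold change was 0.14 ± 0.78 (SE) against tumor-bearing lung (edgeR adjusted p = 0.896) and 0.61 ± 0.77 against normal lung (adjusted p = 0.542), and −1.30 and −0.84 without that tumor. Exons of Wdr3 on the opposite strand cover 9.66% of its exon bases. Wdr3 was higher in tumors, at 51.6 CPM against 19.4 CPM in tumor-bearing lungs and 22.6 CPM in normal lungs (log2 fold changes 1.65 and 1.38), and its part in the Spag17 counts was not tested.

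Among the 9 genes of the doublet microtubules, 8 were lower than in normal lung. Tekt4, Cfap52 and Cfap70 had 0 counts in all tumors and were at least 25.04-fold, at least 20.0-fold and at least 25.8-fold lower. The tektin genes Tekt1 and Tekt2, which encode filament proteins of the doublets, had 1 and 2 counts over the tumors. Cfap126 was at 0.838, 0.624 and 0.234 CPM in tumors, against 3.64 to 5.29 CPM in normal lungs (−3.13 ± 0.48, SE, edgeR adjusted p = 0.000207). Cfap53 passed against normal lung (adjusted p = 0.0105) and not against tumor-bearing lung (0.0633); without the normal lung of mouse 6893 its adjusted p against normal lung was 0.0668. Cfap44 was at 1.68, 1.25 and 0.624 CPM in tumors, against 2.58 to 5.91 CPM in normal lungs, at an adjusted p of 0.0452 that exceeded 0.05 without any 1 of 7 libraries, among them the tumor of mouse 6881 (0.140) and the normal lung of mouse 6893 (0.186).

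Cfap43 was higher in tumors than in normal lung, the single such call among the 45. It had 365, 632 and 476 counts, or 43.7, 49.3 and 37.1 CPM, in the tumors of mice 6877, 6880 and 6881. The tumor-bearing lungs of mice 6877, 6879, 6880 and 6881 had 33.3, 48.9, 31.5 and 34.4 CPM, and the normal lungs of mice 6886, 6887, 6888 and 6893 had 28.7, 25.2, 33.2 and 20.8 CPM. In CPM every tumor lay above every normal lung, and the tumors overlapped the tumor-bearing lungs. The log2 fold change was 0.85 ± 0.21 (SE, edgeR adjusted p = 0.00572), or 1.81-fold, against normal lung and 0.47 ± 0.23 (adjusted p = 0.123) against tumor-bearing lung. On protein-coding TPM, fitted with limma, the call against normal lung was lost (0.52, adjusted p = 0.0854), and the difference from tumor-bearing lung was 0.00; on deposited TPM + 1 the differences were 0.25 (adjusted p = 0.112) and 0.41 (adjusted p = 0.0370). Cfap44, its partner in tethering inner arm dynein heads, had a negative value in both comparisons. The gene lies on GRCm38 at chr19:47736857-47919287 on the minus strand and shares 2.32% of its exon bases with Itprip on the same strand, which was not analysed here.

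The 3 remaining genes, Tppp3, the ciliary adenylate kinase gene Ak7 and the coiled-coil gene Ccdc113, were lower in both comparisons. Tppp3 was at 4.43, 3.59 and 3.98 CPM in tumors, at 188, 155, 140 and 166 CPM in the tumor-bearing lungs of mice 6877, 6879, 6880 and 6881, and at 283, 232, 217 and 185 CPM in the normal lungs of mice 6886, 6887, 6888 and 6893. The tumors lay far below all lungs and close to each other. Its log2 fold change was −5.34 ± 0.24 (SE) against tumor-bearing lung and −5.84 ± 0.24 against normal lung, with edgeR adjusted p of 4e-08 and 1.61e-08.

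Lists of other ciliary genes gave mixed counts, to be read beside the 24.5% of all genes tested that were higher and the 24.7% that were lower than in normal lung. Of 31 intraflagellar transport genes tested, which carry cargo along the axoneme of both kinds of cilia, 5 were higher and 1 lower in tumors than in normal lung, with a median log2 fold change of 0.29. Ift22 was at 18.99 ± 1.59 CPM in tumors and 6.76 ± 1.497 CPM in normal lungs, and Traf3ip1 at 5.14 ± 0.756 and 13.7 ± 1.99 CPM (SD, n = 3 and n = 4). Of 42 primary cilium genes, 11 were higher and 6 lower (median 0.37), a share of higher calls near that of all genes. Of 12 further dynein arm assembly factors, 5 were higher and 2 lower: Ruvbl1, an ATPase with many other uses, averaged 21.6 ± 3.25 CPM in tumors and 8.42 ± 1.64 CPM in normal lungs, while Dnaaf1, used for axonemal dyneins, averaged 0.0520 ± 0.0450 and 1.46 ± 0.0497 CPM. Of 81 other motile cilium genes tested, 55 were lower and 3 higher (median −2.96). Cdhr3, a cadherin gene of ciliated cells, had no count in any tumor and 7.43 ± 0.971 CPM in normal lungs.

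Other regulators gave calls in both directions. Of 13 regulators of multiciliated cells tested, 5 were higher and 5 lower in tumors than in normal lung. Ccno and Trp73, which act in the differentiation of multiciliated cells, were at 0 and 0.0260 ± 0.0451 CPM in tumors, against 2.03 ± 0.575 and 1.28 ± 0.695 CPM in normal lungs. Stil and Plk4, centriole genes that dividing cells use as well, were at 20.0 ± 9.70 and 22.4 ± 3.83 CPM in tumors, against 0.651 ± 0.252 and 5.53 ± 2.64 CPM in normal lungs. All 18 cell division genes listed were higher in tumors in both comparisons. Of 21 club and secretory airway cell genes, 17 were lower than in normal lung, as were 14 of 16 alveolar type 2, 15 of 16 alveolar type 1 and 14 of 14 endothelial genes, so that genes of other lung cells were lower beside the ciliary ones. Of 11 widely expressed relatives of the 45 genes, 3 were higher and 2 lower. The relative of Tppp3 named Tppp was among the lower ones, at 0.314 ± 0.205 CPM in tumors and 70.9 ± 25.9 CPM in normal lungs.

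**Figure D3:**
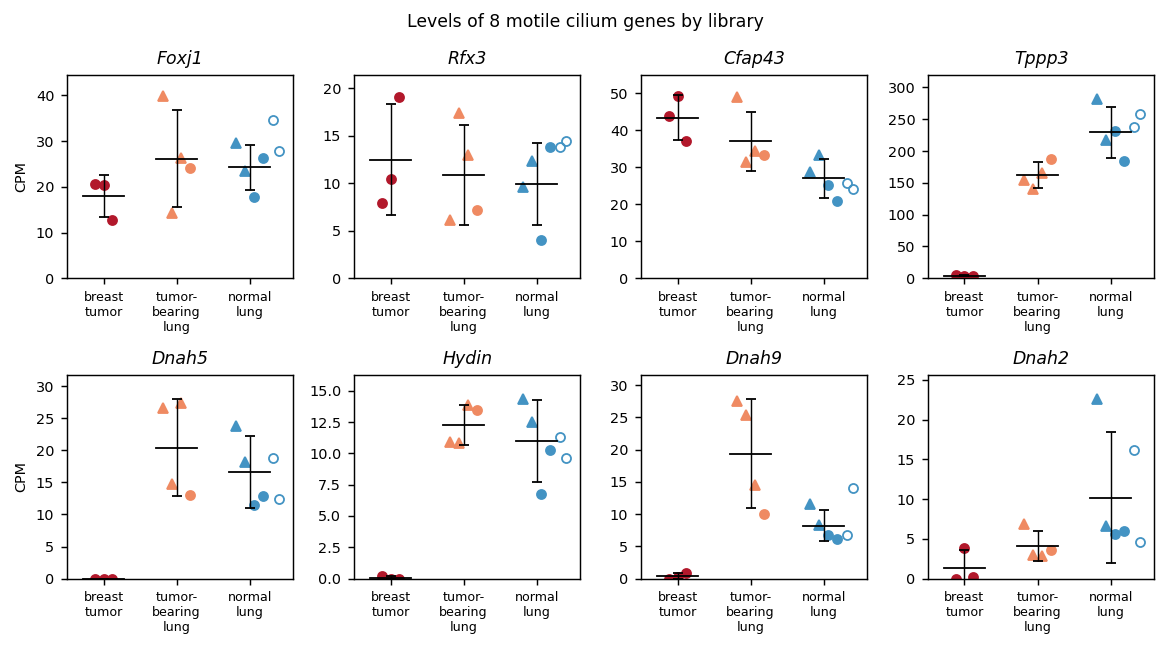
CPM of 8 genes by library, with breast tumors left, tumor-bearing lungs in the middle and normal lungs right. Triangles are libraries of preparation batch 1 and filled circles of batch 2, open circles are the batch 2 repeats of normal mice 6886 and 6888, and lines with bars are the mean and SD over mice (n = 3, 4 and 4); bars end at 0. Tumors overlap the lungs for Foxj1 and Rfx3, lie above the normal lungs for Cfap43 and lie near 0 for Dnah5 and Hydin.

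The lungs of tumor-bearing mice were next set against the lungs of normal mice, the question the study's design text names being what a distant mammary tumor does to gene expression in lung. No ciliary gene changed at an adjusted p under 0.05: edgeR called 0 of the 44 tested, Lrrc6 not having passed the filter on low counts, where 0.012% of 16727 genes tested were higher and 0.0239% lower. At an unadjusted p under 0.05, 6 were higher and 2 lower, against 6.13% and 7.87% of all genes tested. DESeq2 called 1 higher (Dnah9), where it called 134 of 32303 genes higher and 311 lower. Voom called 0, where it called 2 of 16727 genes higher and 4 lower. The median log2 fold change of the 44 was 0.11, against 0.01 over all genes tested, with 30 values above 0 and 14 below. Groups did not overlap for 1 gene that was higher and 0 that were lower, against 2.65% and 3.05% of all genes tested.

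**Figure D4:**
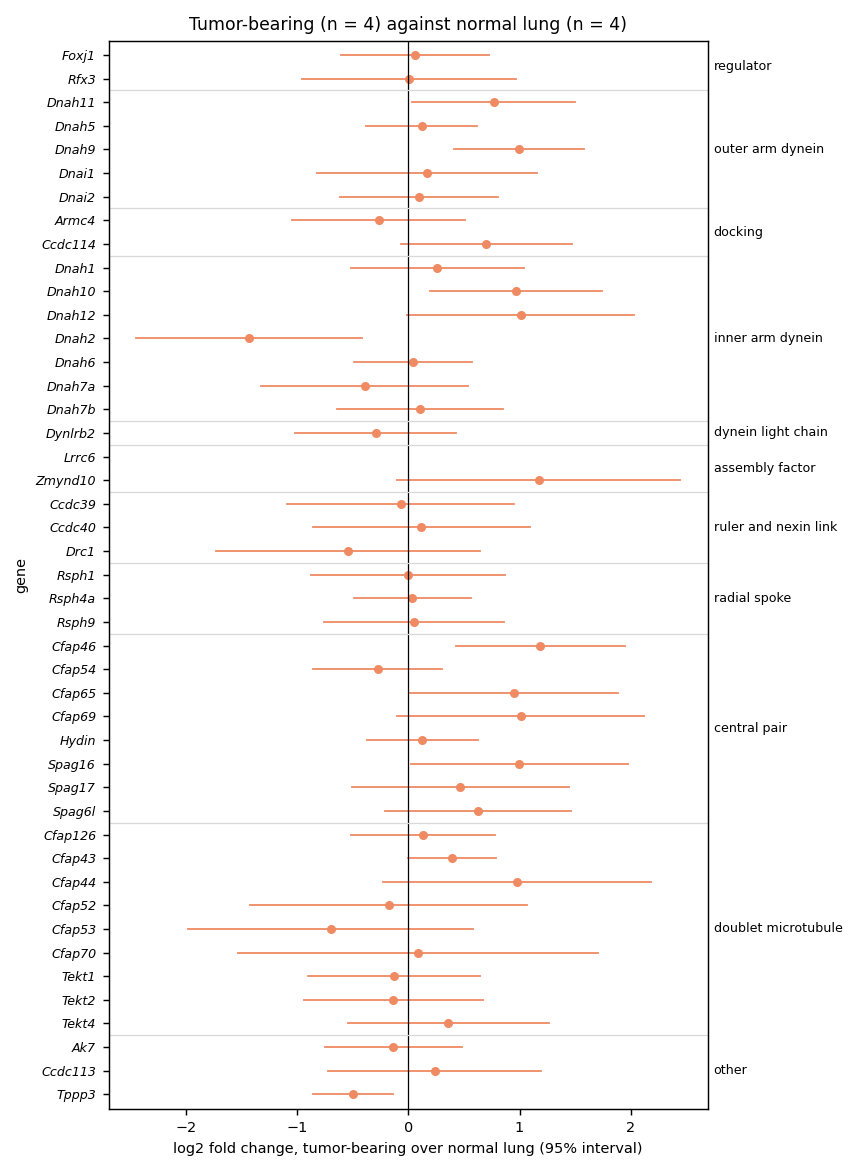
Log2 fold change of tumor-bearing over normal lung with its 95% interval for the 44 genes tested (4 mice per group, batch as covariate), grouped by role. Points lie between −1.43 (Dnah2) and 1.19 (Cfap46), and 7 of 8 central pair genes lie above 0.

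The regulators did not differ detectably. Foxj1, with the values given above, averaged 26.1 ± 10.6 CPM in tumor-bearing lungs and 24.3 ± 4.98 CPM in normal lungs (SD, n = 4 each), and its log2 fold change of 0.06 had a 95% interval from −0.61 to 0.72. Rfx3 averaged 10.9 ± 5.27 and 9.97 ± 4.31 CPM, with a log2 fold change of 0.00 and an interval from −0.96 to 0.97. The intervals thus leave room for changes of over 1.5-fold in either direction.

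The smallest p-value belonged to Dnah9. It was at 9.95, 27.6, 25.4 and 14.6 CPM in the tumor-bearing lungs of mice 6877, 6879, 6880 and 6881, and at 11.5, 6.77, 8.35 and 6.20 CPM in the normal lungs of mice 6886, 6887, 6888 and 6893. Of the tumor-bearing lungs, 3 lay above all main normal libraries, and the fourth fell below that of mouse 6886. Its log2 fold change was 0.99 ± 0.26 (SE, edgeR adjusted p = 0.194), with 1.20 in batch 1 and 0.25 in batch 2 alone. The repeat library of normal mouse 6888 had 14.1 CPM, against 8.35 CPM in its first library. DESeq2 gave an adjusted p of 0.0220.

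Cfap46, of the central pair, was the single gene whose groups did not overlap. Its level was 4.64, 8.70, 4.18 and 9.21 CPM in tumor-bearing lungs and 2.38, 2.20, 3.20 and 3.19 CPM in normal lungs, in the same orders of mice. The repeat libraries of 6886 and 6888, at 3.50 and 3.86 CPM, also lay below every tumor-bearing lung. The fit gave a log2 fold change of 1.19 ± 0.34 (SE, edgeR adjusted p = 0.211), with 1.42 in batch 1 and 0.54 in batch 2 alone.

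The central pair genes as a group had the highest median of the groups with 3 or more genes tested, 0.79, with 7 of 8 values above 0. How far single lungs or a batch set this median was not tested. Besides Cfap46, Spag16 (1.00 ± 0.43, SE) and Cfap65 (0.95 ± 0.42) had an unadjusted p under 0.05 by edgeR, 0.0458 and 0.0467. Spag16 was at 2.80, 6.34, 2.83 and 5.51 CPM in tumor-bearing lungs and 1.30, 2.79, 2.04 and 2.92 CPM in normal lungs, and the groups overlapped. Its value turned to −0.18 in batch 2 alone, and the repeat library of mouse 6886 had 3.94 CPM against 1.30 CPM in the first. Cfap65 was at 5.70, 12.9, 3.60 and 6.52 CPM in tumor-bearing lungs and 3.68, 4.40, 2.75 and 4.11 CPM in normal lungs, also with overlap. Hydin, the largest protein of the group, had 10.8 to 13.8 CPM in tumor-bearing lungs and 6.77 to 14.3 CPM in normal lungs (0.12 ± 0.22).

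Of the dynein arm genes, Dnah10 and Dnah11 also had positive values at an unadjusted p under 0.05. Dnah10, an inner arm heavy chain, was at 12.8, 15.4, 6.05 and 9.79 CPM in tumor-bearing lungs and 6.06, 8.05, 5.24 and 3.56 CPM in normal lungs (0.97 ± 0.34, SE, edgeR adjusted p = 0.283). Dnah11 was at 17.4, 27.2, 9.85 and 11.7 CPM in tumor-bearing lungs and 12.4, 8.38, 9.06 and 8.12 CPM in normal lungs (0.77 ± 0.33, adjusted p = 0.343). The groups overlapped in both, for Dnah10 at the lung of mouse 6880 and for Dnah11 at those of mice 6880 and 6881. The other outer arm genes, Dnah5, Dnai1 and Dnai2, had log2 fold changes of 0.12, 0.17 and 0.09.

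Dnah2, by contrast, had the most negative value. It was at 3.58, 6.84, 3.02 and 2.83 CPM in the tumor-bearing lungs of mice 6877, 6879, 6880 and 6881, and at 22.6, 5.59, 6.57 and 6.02 CPM in the normal lungs of mice 6886, 6887, 6888 and 6893. The value of mouse 6886 stood far above the others in both of its preparations, with 294 and 217 counts, or 22.6 and 16.1 CPM. The log2 fold change was −1.43 ± 0.45 (SE, edgeR adjusted p = 0.242) with that mouse and −0.68 (adjusted p = 0.652) without it. With no filter on low counts the adjusted p was 0.0371.

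Tppp3 was the only other gene with a negative value at an unadjusted p under 0.05. From the CPM given above, it averaged 162 ± 20.4 CPM in tumor-bearing lungs and 229 ± 40.7 CPM in normal lungs (SD, n = 4 each), and the groups overlapped at tumor-bearing lung 6877 and normal lung 6893. Its log2 fold change was −0.50 ± 0.16 (SE, edgeR adjusted p = 0.246), with −0.68 in batch 1 and −0.27 in batch 2 alone. Cfap53, Cfap54, Drc1 and Dynlrb2, with log2 fold changes of −0.70, −0.28, −0.54 and −0.30, all had adjusted p above 0.6. Drc1 was at 10.7, 1.86, 1.74 and 2.03 CPM in tumor-bearing lungs and 1.84, 7.28, 8.44 and 5.20 CPM in normal lungs, so that 1 library of each group lay with the other group. Cfap43 had a log2 fold change of 0.39 ± 0.17 (adjusted p = 0.358).

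Single lungs set much of the spread. The tumor-bearing lung of mouse 6879 was the highest of the 8 main lung libraries for 20 of the 45 genes, and that of mouse 6880, of the same group and batch, was the lowest for 17. The normal lung of mouse 6887 was the lowest for 10. The median log2 fold change of the genes was 0.03 without the lung of mouse 6879, 0.03 without that of mouse 6877 and 0.05 without the normal lung of mouse 6887. It was 0.26 without the lung of mouse 6880 and 0.24 without the normal lung of mouse 6886. The summed level of the club and secretory airway cell genes was 7928 CPM in the lung of mouse 6879 and 5166 CPM in that of mouse 6880, against 7013 and 10697 CPM in the tumor-bearing lungs of mice 6881 and 6877. The amount of airway in each piece is not given in the sources used here, and its part in the ciliary values was not tested.

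Lists around the axoneme showed no called gene in the lungs either. Of 80 other motile cilium genes tested, 0 passed the threshold of edgeR, and 3 were higher and 1 lower at an unadjusted p under 0.05, smaller shares than the 6.13% and 7.87% of all genes tested. Their median was 0.22, with 54 values above 0. The first by p was Dnal1, an outer arm light chain gene, at 12.3 ± 4.32 CPM in tumor-bearing lungs and 24.0 ± 4.41 CPM in normal lungs (adjusted p = 0.205). Among 12 multiciliated cell regulators, Ccdc78 (1.27 ± 0.39, SE, adjusted p = 0.232) and Trp73 (1.35 ± 0.53, adjusted p = 0.313) were the first by p. The medians were 0.06 for 31 intraflagellar transport genes, 0.00 for 42 primary cilium genes and 0.01 for 20 club and secretory airway cell genes.

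Repeat preparations of the same normal lungs differed for single genes. Between the batch 2 and the batch 1 library of mouse 6886 the log2 differences of the 45 genes ran from −0.93 (Dnah7b) to 2.24 (Drc1), with a median of 0.22 and 7 genes beyond 1. For mouse 6888 they ran from −2.58 (Dnah7a) to 1.66 (Tekt2), with a median of 0.14 and 5 genes beyond 1. The median over all 18796 genes compared was 0.02 and 0.01. In absolute size the median difference was 0.357 and 0.456 for the 45 genes, near the 0.418 and 0.454 of all genes. The share of all genes beyond 1 was not counted. Drc1 had 125 counts in the batch 2 and 24 counts in the batch 1 library of mouse 6886, and Dnah7a had 5 counts in the batch 2 and 39 counts in the batch 1 library of mouse 6888. Both differences are larger than any fitted value in the comparison of the lungs. Foxj1 moved by 0.22 and 0.25, and Tppp3 by −0.25 and 0.25.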

How the data were processed

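The authors deposited estimated counts and TPM per gene for each library, quantified with Salmon on mm10 and analysed with DESeq2 1.18.1, per the submitters' processing notes; the Salmon version is not given in the sources used here. The deposited TPM and the estimated counts stand in one constant ratio per gene within a library (largest log2 deviation 1.13e-12 over 17718 genes). The 45 genes, the other lists, the motifs and the alternatives added were chosen with earlier results of these data known. Any of the 45 could be named; those given in full are the regulators, the 5 highest in normal lung, those with appreciable level in tumors, and those past the threshold or first by p in a comparison, with up to 4 genes by p of each other list.

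Counts were rounded to whole numbers and fitted in edgeR 4.0.16 (R 4.3.3) with TMM factors, filterByExpr and a quasi-likelihood test of group with preparation batch as covariate. The lung fit used 8 libraries and the tumor fits 11, with the batch 1 library of mice 6886 and 6888 as the main one. Since all tumors were of batch 2, the batch covariate of the tumor fits rests on the lungs. P-values were adjusted over all genes tested (Benjamini-Hochberg, 0.05). Log values used a prior count of 2. Counting intervals are exact at 95% and, like the floor of 3 counts, cover counting error alone. DESeq2 1.42.0 and limma 3.58.1 gave alternatives. The fitting script was tested on simulated data. The main libraries of 1 group come from separate mice; the repeat libraries of mice 6886 and 6888 were not counted as further mice. Mice 6877, 6880 and 6881 gave both a tumor and a lung, per the labels' mouse numbers, with residual correlations of 0.179, 0.0355 and −0.133. Fragmentation depended on RNA quality, per the labels' protocols, and no quality value per sample was used here. In the tables, 410 of 46679 gene IDs had no name, and promoters came from RefSeq.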

Additional observations from a re-analysis of the deposited data

Results flagged for a closer look

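In 6 of 90 sets of 4 lungs, 1 library stood apart from the other 3 by Dixon's test at 95%; chance alone gives about 1 in 20, or 4.5. In tumor-bearing lungs these were Dnah7a (4.35 CPM) and Drc1 (10.7 CPM) in mouse 6877, and Cfap43 (48.9 CPM) and Cfap44 (20.5 CPM) in mouse 6879, each above the others. In normal lungs they were Dnah2 (22.6 CPM), above the others, and Cfap52 (0.614 CPM), below them, both in the batch 1 library of mouse 6886. In the batch 2 library of that mouse Dnah2 was again high, at 16.1 CPM. Cfap52 was there at 2.23 CPM, within the 2.04 to 2.29 CPM of the other main normal lungs. Mouse 6877 is the single tumor-bearing lung of batch 2, so that its batch and the mouse cannot be told apart.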

How the results depend on the processing

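Between the lungs, DESeq2 called 1 gene higher (Dnah9) and a fit with no filter on low counts called 1 lower (Dnah2); the cause was not tested. Over all 32303 genes of each fit, DESeq2 called 445 and the fit with no filter 275, against 6 of 16727 in the main fit. Leaving out 1 lung gave 0 to 0 calls in either direction and medians of 0.03 to 0.26. Over all genes these fits called from 0 to 221, the most without the tumor-bearing lung of mouse 6877 (of 17143). The median was −0.34 on deposited TPM + 0.1. On deposited TPM the median of all genes moved to −0.23 (TPM + 1) and −0.54 (TPM + 0.1), and on protein-coding TPM to 0.13. Some values changed sign: Rfx3 was −0.0036 with DESeq2 factors, −0.015 with no filter, −0.030 with DESeq2, −0.18 and −0.54 on TPM + 1 and TPM + 0.1, −0.68 with the batch 2 libraries of the repeated mice, −0.12 with repeats summed, −0.69 in batch 2 alone and −0.23 to 0.34 without 1 lung. Foxj1 was −0.048 with voom, −0.31 and −0.62 on TPM + 1 and TPM + 0.1, −0.14 with the batch 2 libraries, −0.020 summed, −0.14 in batch 2 alone and −0.18 to 0.25 without 1 lung. On TPM + 1 and TPM + 0.1, Cfap43 was −0.16 and −0.29 and Dnah11 −0.0068 and −0.022. Drc1 was 0.64 with the batch 2 libraries, 0.63 in batch 2 alone and −1.42 to 0.42 without 1 lung; Spag16 was −0.18 and −0.18 in the first 2 of these.

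Against tumor-bearing lung, TPM + 1 gave 1 higher and 6 lower (median −0.11), TPM + 0.1 gave 1 higher and 22 lower (median −0.81), and protein-coding TPM a median of −1.87. Over all 18297 genes tested, TPM + 1 called 3746 higher and 880 lower, and TPM + 0.1 called 4164 higher and 1774 lower. In tumor-bearing lungs only Tppp3 of the ciliary genes averaged above 1 deposited TPM, at 12.5, and Cfap69 came next at 0.965. Dnah5 and Hydin averaged 0.0776 and 0.0470 deposited TPM there, below both added values. Adding 1 or 0.1 before taking logs makes a difference smaller, the more so the lower the level. These medians thus do not measure how large the reduction in tumors is. How far the added values account for the smaller medians was not tested. Leaving out 1 library gave 31 to 38 lower, the fewest without the lung of mouse 6877, 0 to 0 higher and medians of −5.34 to −4.74. Without that lung, 3360 of 18279 genes tested were lower and 3084 higher. With all libraries, 4343 of 18297 were lower and 4128 higher. The paired fit with mouse as replicate block over 6 libraries, without a batch term, gave a median of −5.24. For mice 6880 and 6881 the tumor was of batch 2 and the lung of batch 1, so that tissue and batch differ together within these pairs. Under the replicate block over all libraries and over 6, Rfx3 was −0.17 and −0.062, and Spag17 −1.08 and −1.07. Spag17 was also −0.14 with voom, −0.27 on protein-coding TPM, −0.31 with no batch term, −0.36 with the batch 2 libraries, −0.31 in batch 2 alone and −1.30 to 0.97 without 1 library. Foxj1 was 0.074 and 0.093 on TPM + 1 and TPM + 0.1.

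Against normal lung, TPM + 1 gave 0 higher and 19 lower (median −0.18), TPM + 0.1 gave 0 higher (median −1.05), protein-coding TPM gave 0 higher (median −1.48), and no batch term a median of −4.33. Over all 18297 genes tested, TPM + 1 called 2387 higher and 2999 lower, and TPM + 0.1 called 2433 higher. Protein-coding TPM called 2950 of 14450 genes higher. Leaving out 1 library gave 1 to 1 higher, 34 to 38 lower and medians of −5.14 to −4.52. Over all genes, the fewest were called without the normal lung of mouse 6887, 3677 higher and 3840 lower of 17976. The most were called without the tumor-bearing lung of mouse 6879, 4545 higher and 4555 lower of 18265. Dnah7b was −0.56 with voom, −0.0055, −0.12 and −0.31 on TPM + 1, TPM + 0.1 and protein-coding TPM, and −1.33 to 0.50 without 1 library. Spag17 was −0.0082 on TPM + 0.1 and −0.84 to 1.03 without 1 library.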
